A study of Bos taurus with 2 samples.

Results

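A set of 10 WNT signalling genes was followed through nuclei of bovine blastoids and day-8 bovine blastocysts: the nuclear factors LEF1 and TCF7, and the response genes AXIN2, NKD1, SP5, LGR5, NOTUM, DKK1, RNF43 and ZNRF3. They were chosen by symbol, as known WNT factors and targets, and all 10 were among the 35643 features listed for both libraries. In the canonical WNT pathway, a ligand that binds a Frizzled receptor and an LRP co-receptor stops the destruction complex, built on AXIN, APC and GSK3, from marking β-catenin for degradation. β-catenin then enters the nucleus and joins LEF1, TCF7 or their relatives TCF7L1 and TCF7L2 on target genes. Many of those targets are brakes on the pathway itself, so their RNA is widely used as a readout of it.

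Blastoids are models of the blastocyst that form when stem cells aggregate in culture. Per the labels, both sources were wild type (WT), and each blastoid microwell was seeded with 8 bEPSC, 8 bXEN and 16 bTSC cells after a step that depleted feeder cells (iMEF). The cells were suspended in ACL medium, which held LIF at 20 ng/ml, activin A at 10 ng/ml and CHIR99021, with the CEPT cocktail of chroman-1, emricasan, trans-ISRIB and a polyamine supplement. CHIR99021 inhibits GSK3 and thereby stabilises β-catenin, so the question asked of these genes was where in the blastoid, relative to the embryo, WNT target RNA was found. The labels do not say how long the blastoids stayed in CHIR99021, nor how many blastoids or embryos were pooled, and the medium of the blastocysts is not given in the sources used here. Each group was 1 library of frozen material, so no difference below has a replicate check: every comparison is of these 2 libraries, and all intervals are exact 95% intervals that cover counting error only.

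After filtering, 1914 blastoid barcodes with 7481886 UMIs (unique RNA molecules counted) and 827 blastocyst barcodes with 6861558 UMIs remained, and the libraries shared 1 barcode sequence before filtering. Clustering without the WNT genes and without the marker genes gave 3 blastoid and 4 blastocyst classes. In the blastoid, 154 barcodes were trophectoderm-like (median 14620 UMIs), 141 formed an unnamed cluster led by LMX1A, LDB2, NLGN1 and DCC and called DCC-high here (median 10924 UMIs), and 1619 were ribosomal-rich, with 16.1% of UMIs from ribosomal protein genes and a median of 1922 UMIs. In the blastocyst, 236 barcodes were trophectoderm-like, 72 epiblast-like, 402 hypoblast-like and 117 shallow with keratin RNA (median 1625 UMIs). No blastoid cluster took an epiblast or hypoblast name, but the rule gave no lineage name to a ribosomal-rich cluster, whatever its markers. The trophectoderm-like class was thus the one class with the same name in both libraries. Gates on marker genes, tried as an alternative, gave 42 epiblast-like and 11 hypoblast-like blastoid barcodes beside 18 and 398 in the blastocyst. The inner classes were not compared between the libraries on these gates. In the trophectoderm-like class the 23 matched trophectoderm markers summed to 6059 CPM (counts per 1000000 UMIs) in the blastoid and 5035 CPM in the blastocyst. The same markers, keratins among them, summed to 17658 CPM in the ribosomal-rich and 10564 CPM in the shallow barcodes, which the naming rule kept out of the class. The 24 hypoblast markers summed to 3301 CPM in the ribosomal-rich barcodes and 8220 CPM in the hypoblast-like class. They summed to 4637 CPM in the blastoid and 4751 CPM in the blastocyst trophectoderm-like class. The blastoid class took its name on 6 trophectoderm markers against 3 each of the epiblast, hypoblast and granulosa lists, the smallest margin the rule allowed. The 2 inner lineages of the blastocyst were less cleanly separated: HNF4A, a hypoblast factor, stood at 563 CPM in the epiblast-like and 550.2 CPM in the hypoblast-like class.

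**Figure D1:**
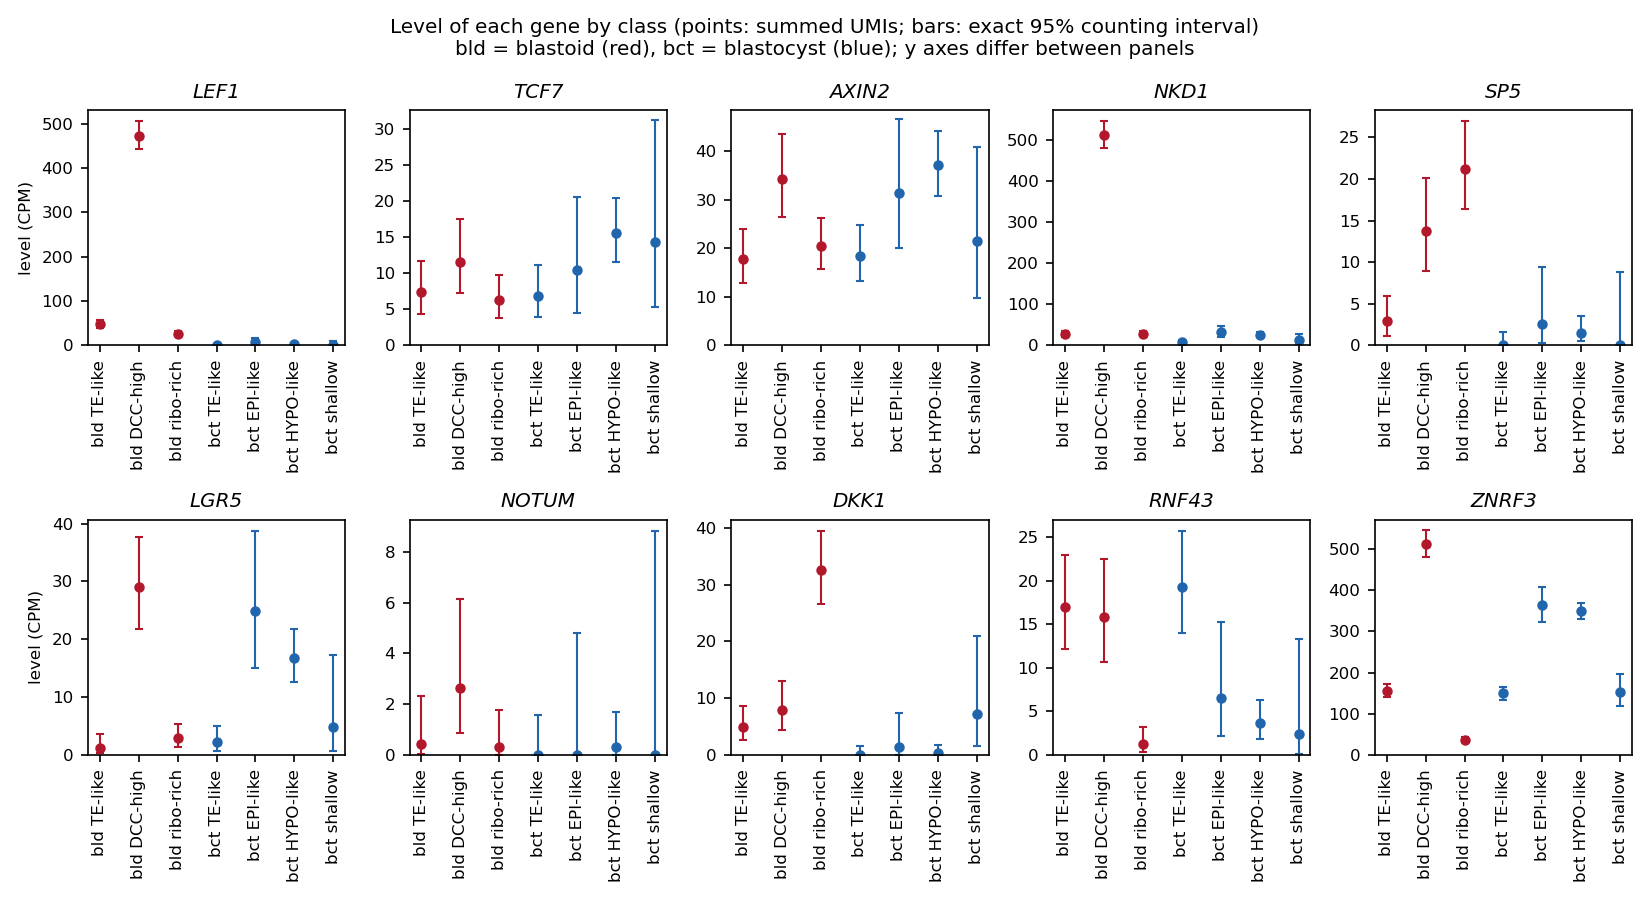
Level of each of the 10 genes in the 3 blastoid classes (bld, red) and the 4 blastocyst classes (bct, blue), in CPM on a linear axis that differs between panels; points are summed UMIs and bars exact 95% counting intervals. LEF1, NKD1 and ZNRF3 peak in the DCC-high blastoid cluster at 473, 511 and 513 CPM, DKK1 peaks in the ribosomal-rich barcodes at 32.6 CPM, and RNF43 is highest in the 2 trophectoderm-like classes at 16.9 and 19.2 CPM.

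LEF1, the DNA-binding partner of β-catenin whose own gene is a WNT target, had the largest ratio between the libraries of the 10 genes. Its level was 473 CPM (443 to 505) in the DCC-high cluster, 48.0 CPM in the blastoid trophectoderm-like class and 26.2 CPM in the ribosomal-rich barcodes. In the blastocyst it was 7.84 CPM (2.88 to 17.1) in the epiblast-like class, 2.10 CPM in the hypoblast-like class and 1.28 CPM in the trophectoderm-like class, and 0 UMIs were counted in the shallow barcodes, which allows up to 8.84 CPM. All 3 blastoid classes were thus above all 4 blastocyst classes by these sums. The blastoid trophectoderm-like value rests on few nuclei, however: it was 17.2 CPM without its highest nucleus and 10.3 CPM (6.58 to 15.3) without its 3 highest, an interval that overlaps that of the epiblast-like class. It was 6.27 CPM when classes were built from barcodes with at least 4000 UMIs and 85.6 CPM with classes from marker gates. The class itself changed under these settings, from 154 barcodes to 98 and 284. The epiblast-like value was sparse too, with 3 of its 6 UMIs in 1 nucleus and 3.98 CPM without it, and it ranged from 1.02 to 16.3 CPM over the settings tried. The intervals of all 4 blastocyst classes overlapped each other. Of the 1098 LEF1 UMIs of the blastoid, 81.9% lay in the DCC-high cluster, which held 7.37% of the barcodes and 25.4% of the UMIs.

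Summed over whole libraries, LEF1 counted 1098 blastoid and 16 blastocyst UMIs, a ratio of CPM of 62.9 (38.6 to 110.5). Without the DCC-high cluster the ratio was 15.3 (9.18 to 27.3), so the direction did not rest on that cluster while most of the size did. Of the 199 LEF1 UMIs then left, 75 lay in 1 trophectoderm-like nucleus, without which the ratio was 9.58 (5.67 to 17.3). In single nuclei of the DCC-high cluster, LEF1 ranged from 0 to 39 UMIs with a median of 4, and 124 of 141 nuclei had at least 1. After every nucleus was thinned to 2000 UMIs, 67 of 140 still had one (47.9%, 39.3% to 56.5%). The same thinned share was 5.33% in the blastoid trophectoderm-like class and 3.81% in the ribosomal-rich barcodes, the other droplets of that library. In the blastocyst it was 2.78% in the epiblast-like, 0.253% in the hypoblast-like and 0.429% in the trophectoderm-like class.

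TCF7, the second factor of the pair and also a classical WNT target, showed no such pattern. Its levels ran from 15.6 CPM (11.6 to 20.4) in the hypoblast-like class, through 14.4 CPM in the shallow blastocyst barcodes, 11.6 CPM in the DCC-high cluster and 10.5 CPM in the epiblast-like class, down to 7.44 CPM in the blastoid and 6.84 CPM in the blastocyst trophectoderm-like class and 6.32 CPM in the ribosomal-rich barcodes. No neighbours in that order differed beyond their intervals, while the highest and the lowest did. Over whole libraries 60 UMIs stood against 82, a ratio of 0.67 (0.47 to 0.95). The 2 factors therefore differed in where their RNA lay: the DCC-high cluster held 9.87 times the LEF1 level of the blastoid trophectoderm-like class (8.13 to 12.1) and 1.56 times its TCF7 level (0.797 to 3.08). Without the highest trophectoderm-like nucleus the LEF1 ratio was 27.6 (20.2 to 38.7), and without the 3 highest it was 46.1 (30.8 to 72.3).

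AXIN2, a scaffold of the destruction complex and the target most often used to read canonical WNT activity, did not follow LEF1. Its highest levels were 37.1 CPM (30.9 to 44.3) in the hypoblast-like class, 34.2 CPM (26.4 to 43.6) in the DCC-high cluster and 31.4 CPM (20.1 to 46.7) in the epiblast-like class, 3 values whose intervals overlap. The lowest were 18.4 CPM in the blastocyst and 17.8 CPM in the blastoid trophectoderm-like class, with the ribosomal-rich barcodes at 20.5 CPM and the shallow ones at 21.6 CPM. Counts over the whole libraries were 173 blastoid and 200 blastocyst UMIs, a ratio of 0.79 (0.64 to 0.98). Between the DCC-high cluster and the hypoblast-like class the AXIN2 ratio was 0.92 (0.67 to 1.25), where the LEF1 ratio was 226 (109 to 563).

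NKD1, which binds Dishevelled and damps the pathway from the cytoplasm, shared the LEF1 peak. It stood at 511 CPM (480 to 544) in the DCC-high cluster and between 8.13 and 31.4 CPM in every other class. Those lower classes were the epiblast-like at 31.4 CPM, the ribosomal-rich at 28.1, the blastoid trophectoderm-like at 26.5, the hypoblast-like at 25.4, the shallow at 12.0 and the blastocyst trophectoderm-like at 8.13. Below the DCC-high cluster no neighbours in this order differed beyond their intervals. Whole libraries gave 1124 against 133 UMIs, a ratio of 7.75 (6.47 to 9.35), but without the DCC-high cluster this ratio was 1.41, under the 2-fold line. That cluster held 86.4% of the NKD1 UMIs of the blastoid.

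ZNRF3, a membrane E3 ligase that removes Frizzled receptors from the cell surface, was abundant in both libraries. It was highest in the DCC-high cluster, at 513 CPM (481 to 546), followed by the epiblast-like class at 363 CPM (322 to 408) and the hypoblast-like class at 349 CPM (329 to 370). The blastoid trophectoderm-like class, the shallow barcodes and the blastocyst trophectoderm-like class stood together at 155, 153 and 149 CPM, and the ribosomal-rich barcodes were lowest at 36.4 CPM. In the blastocyst, ZNRF3 was 2.34 times higher in the hypoblast-like than in the trophectoderm-like class (2.07 to 2.64). Its whole-library ratio of 0.72 (0.67 to 0.77) moved to 1.12 without the ribosomal-rich and shallow barcodes and to 0.32 without the DCC-high cluster, so its direction between the libraries depended on which barcodes were summed.

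RNF43, the paralogue of ZNRF3 with the same function at the membrane, had a different lineage pattern. It was highest in the blastocyst trophectoderm-like class at 19.2 CPM (14.0 to 25.7), the blastoid trophectoderm-like class at 16.9 CPM (12.2 to 23.0) and the DCC-high cluster at 15.8 CPM (10.7 to 22.5). Lower levels were measured in the epiblast-like class at 6.53 CPM, the hypoblast-like class at 3.59 CPM, the shallow barcodes at 2.40 CPM, from 1 UMI, and the ribosomal-rich barcodes at 1.26 CPM. Within the blastocyst, RNF43 was 5.36-fold lower in the hypoblast-like than in the trophectoderm-like class (2.79 to 11.1), opposite in direction to ZNRF3. It was 4.40 times higher in the DCC-high cluster than in the hypoblast-like class (2.19 to 9.43).

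LGR5, a receptor for R-spondins, the secreted proteins that counteract ZNRF3 and RNF43, was found mainly outside the trophectoderm-like classes. Its levels were 29.0 CPM (21.8 to 37.7) in the DCC-high cluster, 24.8 CPM (14.9 to 38.8) in the epiblast-like class and 16.8 CPM (12.7 to 21.8) in the hypoblast-like class, against 4.79 CPM in the shallow barcodes, 2.85 CPM in the ribosomal-rich barcodes, 2.14 CPM in the blastocyst trophectoderm-like class and 1.24 CPM in the blastoid one. The last 4 of these rested on 2 to 9 UMIs each. In a finer clustering of the blastocyst, LGR5 stood at 31.0 CPM (21.0 to 43.9) in the 138 barcodes of the hypoblast-like class that kept that name, and at 8.02 and 11.3 CPM in the 2 unnamed clusters of 139 and 132 barcodes that came mostly from the same class. This split was examined after its values were seen. Over whole libraries LGR5 counted 67 and 82 UMIs, a ratio of 0.75 (0.53 to 1.05). It became 1.08 without the ribosomal-rich and shallow barcodes and 1.14 at 4000 UMIs per barcode, and LGR5 was 5.56-fold lower in the blastoid without the DCC-high cluster, so its direction depended on the barcodes summed.

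SP5, a zinc-finger repressor induced by β-catenin, and DKK1, a secreted inhibitor that blocks the LRP co-receptors, were the members found chiefly in the ribosomal-rich barcodes. SP5 stood there at 21.2 CPM (16.4 to 26.9), in the DCC-high cluster at 13.7 CPM (8.94 to 20.1) and in the blastoid trophectoderm-like class at 2.89 CPM. In the blastocyst it was 2.61 CPM in the epiblast-like class from 2 UMIs, 0.486 to 3.49 CPM in the hypoblast-like class from 5, and 0 in the trophectoderm-like and shallow barcodes, which allows up to 1.58 and 8.84 CPM. SP5 RNA was thus scarce in the blastocyst library, with 7 UMIs against 100 in the blastoid, a ratio of 13.1 (6.13 to 33.4). The ratio was 7.03 without the ribosomal-rich and shallow barcodes and 8.44 at 4000 UMIs per barcode.

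DKK1 was at 32.6 CPM (26.6 to 39.5) in the ribosomal-rich barcodes, 7.90 CPM (4.42 to 13.0) in the DCC-high cluster and 4.96 CPM (2.56 to 8.67) in the blastoid trophectoderm-like class. The blastocyst gave 7.19 CPM in the shallow barcodes from 3 UMIs, 1.31 CPM in the epiblast-like and 0.299 CPM in the hypoblast-like class from 1 UMI each, and 0 in the trophectoderm-like class. Over whole libraries 130 UMIs stood against 5, a ratio of 23.8 (9.96 to 74.7), and 79.2% of the blastoid UMIs were in the ribosomal-rich barcodes. Without the ribosomal-rich and shallow barcodes, 27 DKK1 UMIs stood against 2, a ratio of 20.1 (5.06 to 175). NOTUM, a secreted lipase that inactivates WNT ligands, gave 7 UMIs in the blastoid, 5 of them in the DCC-high cluster, and 1 in the blastocyst, in the hypoblast-like class. With 8 UMIs in all its levels could not be ordered.

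Side by side over whole libraries, 4 of the 9 genes with at least 20 UMIs (LEF1, NKD1, SP5 and DKK1) were at least 2-fold higher in the blastoid and 0 were at least 2-fold lower. Of all 16904 genes with that many UMIs, 23.2% were at least 2-fold higher and 20% at least 2-fold lower. The other 5, TCF7, AXIN2, LGR5, RNF43 and ZNRF3, had ratios between 0.67 and 1.09. Among these, the RNF43 ratio of 1.09 became 1.71 without the ribosomal-rich and shallow barcodes and 1.79 at 4000 UMIs per barcode. The LGR5 and ZNRF3 ratios rose above 1 under the same settings, to at most 1.14, and all 3 genes stayed under 2-fold there. The median log2 ratio of well-counted genes was -0.25 over whole libraries, and scaling the ratios by it changed the side of the 2-fold line of none of the 9. Without the DCC-high cluster, LGR5 and ZNRF3 became at least 2-fold lower, where 27.1% of all genes were, and NKD1 was no longer called.

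**Figure D2:**
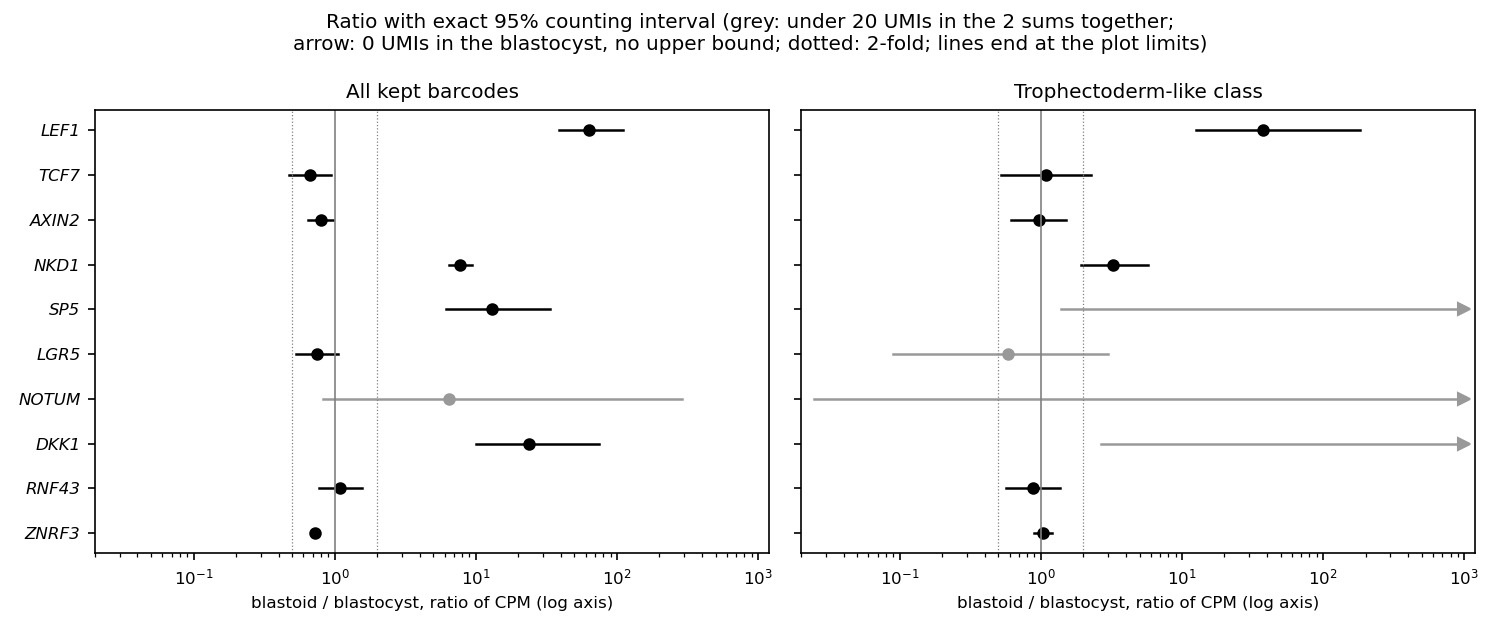
Ratio of CPM, blastoid over blastocyst, on a log axis for all kept barcodes (left) and for the trophectoderm-like class (right), with exact 95% counting intervals; grey marks genes under 20 UMIs in the 2 sums together and arrows an open upper bound. LEF1 lies to the right of the 2-fold line in both panels, at 62.9 and 37.4, while AXIN2, at 0.79 and 0.97, lies near 1 in both.

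In the class with the same name in both libraries, 4 members had ratios close to 1, and ZNRF3 was the most tightly bounded. For the trophectoderm-like class, blastoid over blastocyst, ZNRF3 counted 375 and 349 UMIs, a ratio of 1.04 (0.90 to 1.21). AXIN2 counted 43 and 43, a ratio of 0.97 (0.62 to 1.51), RNF43 41 and 45, a ratio of 0.88 (0.56 to 1.38), and TCF7 18 and 16, a ratio of 1.09 (0.52 to 2.28). With classes taken from marker gates instead of clusters, the log2 ratio of ZNRF3 was 0.45, above the upper limit its counting interval gives.

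LEF1 and NKD1 were the 2 of 6 genes with at least 20 UMIs in this class that were at least 2-fold higher in the blastoid, and 0 were lower. The background was 18.5% of 12878 genes higher and 13% lower. NKD1 counted 64 and 19 UMIs, a ratio of 3.26 (1.93 to 5.76), and 3.03 without its highest nucleus. With classes from marker gates the log2 ratio of NKD1 was 3.50, with the blastoid class at 87.3 CPM. LEF1 counted 116 and 3 UMIs, a ratio of 37.4 (12.5 to 184), but 1 of the 154 nuclei held 75 of the 116 UMIs. That nucleus had 29117 UMIs in all, 0 of NKD1, 3 of ZNRF3, 1 of GATA2 and 0 of GATA3, 2 trophectoderm factors with medians of 5 and 2 in the class, whose median depth was 14620 UMIs, and 2 of the 10 genes that lead the DCC-high cluster. The next 2 nuclei held 10 and 7 LEF1 UMIs, with 14 and 6 of NKD1 and 37 and 13 of those leading genes, where the class median was 2. Without all 3, LEF1 was at 10.3 CPM (6.58 to 15.3) from 24 UMIs, a ratio of 8.01 (2.43 to 41.6). Whether mixed droplets or free RNA contribute to the remaining LEF1 was not tested.

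The other members were sparse in this class. DKK1 gave 12 blastoid and 0 blastocyst UMIs, for which the interval of the ratio starts at 2.69, and SP5 gave 7 and 0, for which it starts at 1.39. Both were under the minimum of 20 UMIs and were not called. At a minimum of 10 UMIs DKK1 was called, so 3 of 7 members were higher, against 20.4% of all genes. At 100 UMIs it was 1 of 2, against 13.7%. LGR5 gave 3 and 5 UMIs and NOTUM 1 and 0, which show no difference at this depth. In the ribosomal-rich barcodes of the same library DKK1 was 6.56 times (3.60 to 13.1) and SP5 7.32 times (3.36 to 18.9) higher than in the trophectoderm-like class, 2 of 8 genes against 22.6% of all genes. RNF43 was 13.4-fold (4.85 to 51.5) and ZNRF3 4.26-fold (3.45 to 5.30) lower there, 2 of 8 against 37.9%.

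Inside the blastocyst, several members differed between the trophectoderm-like class and the 2 inner classes. In the hypoblast-like over the trophectoderm-like class, 5 of the 6 genes with at least 20 UMIs were at least 2-fold higher, against 17.2% of 13334 genes, and 1, RNF43, was at least 2-fold lower, against 12.7%. The 5 were LGR5 at 7.84 (3.17 to 25.1), NKD1 at 3.13 (1.89 to 5.46), ZNRF3 at 2.34, TCF7 at 2.28 (1.28 to 4.27) and AXIN2 at 2.02 (1.42 to 2.93). The intervals of AXIN2, TCF7 and NKD1 crossed the 2-fold line. For the epiblast-like over the trophectoderm-like class, NKD1 at 3.86 (2.03 to 7.45), LGR5 at 11.6 (4.19 to 39.8) and ZNRF3 at 2.43 (2.07 to 2.86) were higher, 3 of 6 against 15.4% of all genes. Of the 19 epiblast-like LGR5 UMIs 7 lay in 1 nucleus, without which the level was 15.9 CPM instead of 24.8 and the ratio 7.43 (2.44 to 26.9). In the same comparison RNF43 was 2.95-fold lower (1.17 to 9.51), 1 of 6 against 17.6%. Between the epiblast-like and hypoblast-like classes 0 of 5 genes reached 2-fold in either direction, with 4.95% and 5.95% of all genes as the background.

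Among the 7 classes, the DCC-high cluster had the highest level of LEF1, NKD1 and ZNRF3, beyond the intervals of all other classes. It also had the highest measured level of LGR5 among them, whose interval overlapped that of the epiblast-like class. In the finer clustering LGR5 stood at 31.0 CPM in the hypoblast-like cluster. Over the blastoid trophectoderm-like class, 5 of 9 genes were at least 2-fold higher (19.5% of all genes) and 0 lower (16.9%): LGR5 at 23.3 (7.58 to 117), NKD1 at 19.3 (15.0 to 25.3), LEF1 at 9.87 (27.6 without the highest trophectoderm-like nucleus), SP5 at 4.73 (2.00 to 12.9) and ZNRF3 at 3.31 (2.93 to 3.74). AXIN2 at 1.93 (1.29 to 2.90), DKK1 at 1.59 (0.696 to 3.72), TCF7 at 1.56 and RNF43 at 0.93 stayed under that line. Against the hypoblast-like class of the blastocyst, LEF1 at 226, NKD1 at 20.1 (16.1 to 25.4), SP5 at 9.14 (3.46 to 30.5) and RNF43 at 4.40 were at least 2-fold higher, 4 of 8 against 21.9% of all genes. LGR5 at 1.73 (1.17 to 2.55), ZNRF3 at 1.47 (1.35 to 1.60), AXIN2 at 0.92 and TCF7 at 0.74 were within 2-fold there, so 0 were lower, against 20.2% of all genes. Against the epiblast-like class 4 of 8 were again higher, with 25% of all genes as the background: LEF1 at 60.4 (27.6 to 165, on 6 epiblast-like UMIs, 3 of them in 1 nucleus), NKD1 at 16.3 (10.9 to 25.6), SP5 at 5.24 (1.31 to 45.5) and RNF43 at 2.42 (0.929 to 7.98), and 0 were lower, against 15.4%.

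**Figure D3:**
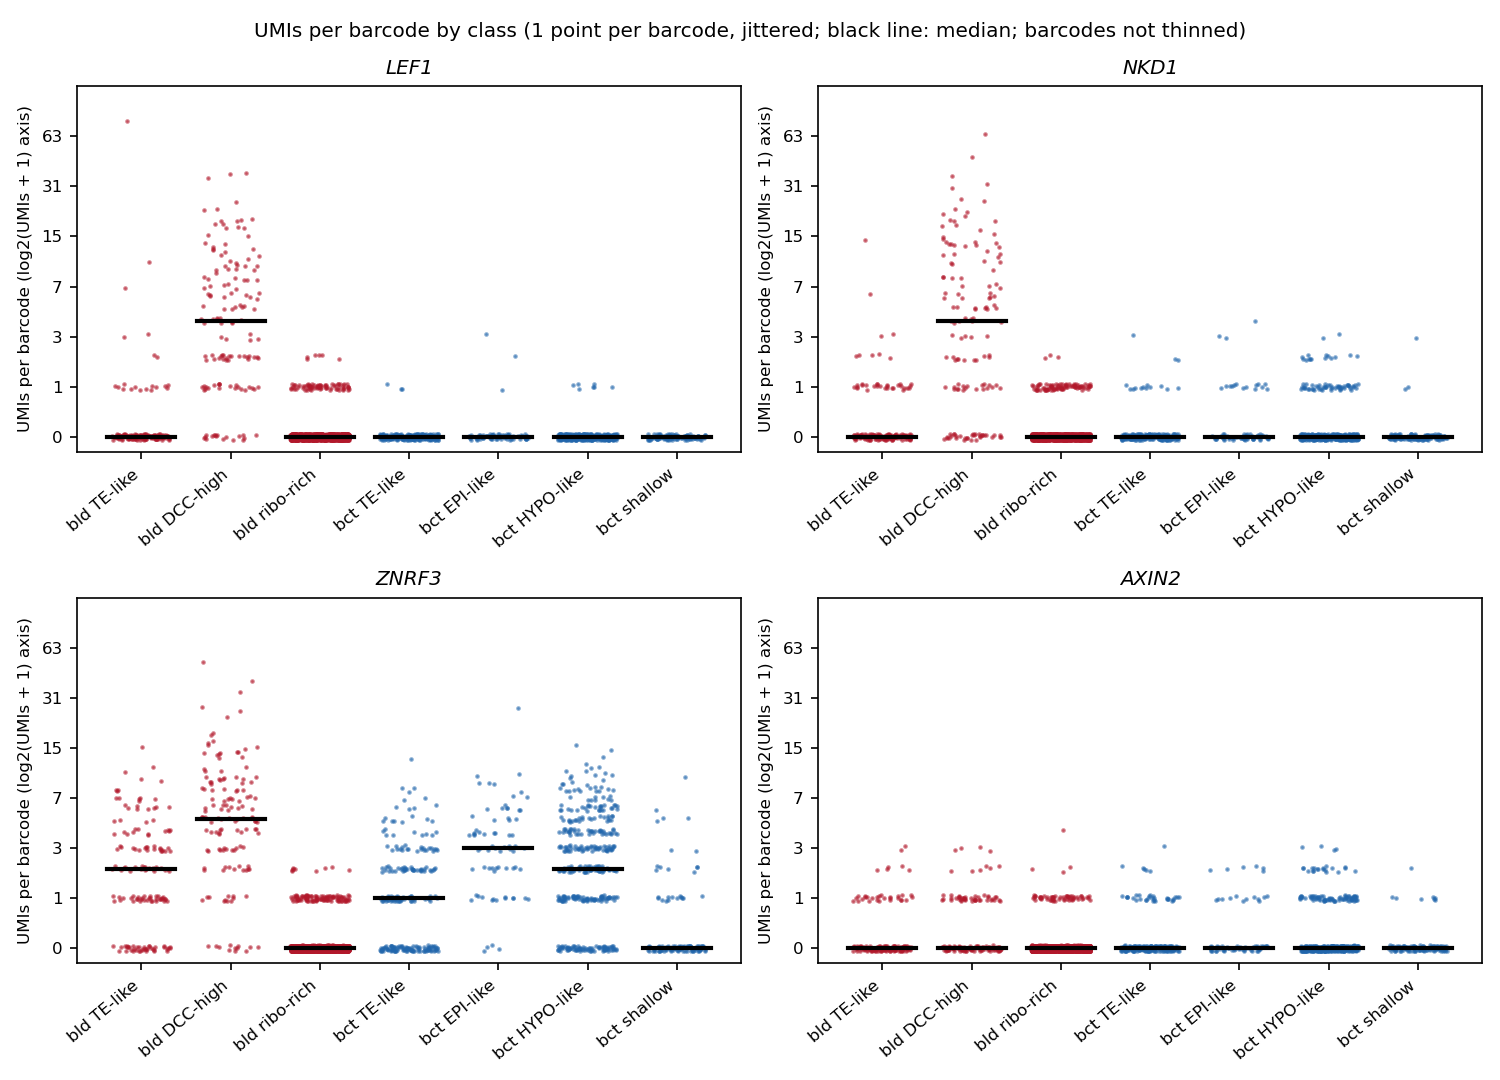
UMIs of LEF1, NKD1, ZNRF3 and AXIN2 in each barcode by class, on a log2(UMIs + 1) axis, with 1 jittered point per barcode and the median as a black line; barcodes were not thinned, so depth differs between classes. In the DCC-high cluster the medians are 4, 4 and 5 UMIs for the first 3 genes, the lone blastoid trophectoderm-like nucleus with 75 LEF1 UMIs stands above its class, and AXIN2 has a median of 0 in every class.

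The high level of LEF1, NKD1 and ZNRF3 was spread over most nuclei of the DCC-high cluster. All 3 were detected in 94 of 141 DCC-high nuclei (66.7%, 58.2% to 74.4%), against 6 of 154 in the blastoid trophectoderm-like class, 3 of 402 in the hypoblast-like class, 2 of 72 in the epiblast-like class and 1 of 236 in the blastocyst trophectoderm-like class. Each gene alone was detected in 124, 108 and 129 of the DCC-high nuclei, and whether they met more often than those shares give was not tested. A median of 4 of the 10 genes was detected per DCC-high nucleus and a median of 2 per blastoid trophectoderm-like nucleus, although the latter were deeper.

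Markers of other cell types were measured in the same classes. The 11 neural markers summed to 1863 CPM in the DCC-high cluster, chiefly PAX3 at 1358 CPM and STMN2 at 364 CPM, with SOX1 and SOX10 at 0. The same sum was 703 CPM in the ribosomal-rich barcodes, 127 CPM in the blastoid trophectoderm-like class and 13.3 to 96.7 CPM in the blastocyst classes. Without PAX3 it was 504 CPM in the DCC-high cluster and 600.3 CPM in the ribosomal-rich barcodes, where STMN2 stood at 449.5 CPM, so the excess of the DCC-high cluster over those barcodes rests on PAX3. The sum without PAX3 was 104 CPM in the blastoid trophectoderm-like class and 11.1 to 87.5 CPM in the blastocyst classes, so the excess over these remained. The 11 mesoderm markers, which include the WNT target TBXT, summed to 10.0 CPM in the DCC-high cluster and 2.14 to 17.7 CPM elsewhere, and the 11 fibroblast markers to 108 CPM there, within the range of 30.2 to 110.3 CPM of the other classes. The part of these cell types in the LEF1 and NKD1 levels was not tested.

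In the ribosomal-rich barcodes 5 of 9 members, LEF1, NKD1, LGR5, RNF43 and ZNRF3, were at least 2-fold lower than in the DCC-high cluster, against 40.4% of all genes, and 1, DKK1, was higher, against 24.1%. LEF1 stood there at 5.54% (4.37% to 6.95%) of its DCC-high level, NKD1 at 5.50% (4.38% to 6.84%) and ZNRF3 at 7.09% (5.79% to 8.61%). DKK1 was higher there, at 412% (239% to 763%), so the members did not all stand at 1 common share of their DCC-high level. SP5 at 155% (97.0% to 254%) was not separated from its DCC-high level. AXIN2 (41.91% to 86.02%) and TCF7 (28.26% to 104.83%) had intervals between those of ZNRF3 and DKK1. LGR5 at 9.83% (4.27% to 20.04%) and RNF43 at 8.01% (2.05% to 22.72%) had intervals that overlapped those of LEF1, NKD1 and ZNRF3. NOTUM had too few UMIs to be placed. The 10 genes that lead the DCC-high cluster stood at 1.76% to 3.21% of their DCC-high level. How much of any member's RNA in the ribosomal-rich barcodes was free RNA was not tested.

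Over the 7 classes, the members fell into unlike patterns. Pearson's r of log2(CPM + 1) was 0.96 for AXIN2 with LGR5 and 0.87 for LEF1 with NKD1, as a description over 7 points that share 2 libraries and differ in depth. Among 10299 genes with at least 100 UMIs, the patterns most like LEF1 were those of ZFHX4, KLHL23 and CTNNA2 (r 0.99, 0.98 and 0.98) and those most like NKD1 were DOK5, CSMD1 and CCDC148. For LGR5 they were ANTXR1, PLCB1 and LRRC19, for AXIN2 ELMOD1, SLC8A1 and IGSF11, for ZNRF3 MIB1, RINT1 and SRPK2, and for TCF7 MATN2, DDX50 and PAX8. SP5 was nearest to FABP7, MRGBP and CA14, DKK1 to CCDC43, VIM and MCTS1, and RNF43 to KCTD9, FYCO1 and ABCA1.

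Of 94 other WNT pathway genes matched by symbol, 72 had at least 20 UMIs over the whole libraries. In the blastoid 31 of these were at least 2-fold higher and 8 at least 2-fold lower, with a median log2 ratio of 0.32 against -0.09 over all genes, of which 23.2% were higher and 20% lower. That median was -0.06 without the DCC-high cluster. For the trophectoderm-like class the counts were 20 higher and 5 lower of 55, where all genes gave 18.5% and 13%, with a median of 0.23 against 0.07. Of the 16 cytoplasmic components, which include the CHIR99021 target GSK3 in its 2 forms, 13 were within 2-fold over whole libraries, with APC2 highest at 2.18 (0.910 to 5.75) and BTRC lowest, 2.65-fold lower.

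The ligand and receptor genes differed more. The counts here are over whole libraries, where 23.2% of all genes were higher and 20% lower. Of 11 ligand genes, 9 were higher, led by WNT4 at 17.6 (7.29 to 55.5), and 1, WNT2, was 2.54-fold lower. Of 14 receptor genes, 8 were higher, led by FZD2 with 395 UMIs against 2, and 1, FZD5, was 3.79-fold lower. WLS, which carries WNT ligands to the cell surface, counted 2400 against 310 UMIs (6.31 to 8.02 times higher), while PORCN, which acylates them, was 5.36-fold lower and the R-spondin RSPO3 9.52-fold lower. RSPO3 was at 161 CPM in the hypoblast-like class, which it helped to name as a marker, and at 2.48 CPM in the blastoid trophectoderm-like class. Between the epiblast-like and hypoblast-like classes RSPO3 was within 2-fold. Its receptor LGR5 was present in both, at 24.8 and 16.8 CPM.

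Nuclear partners of the members and other response genes also differed. Of 11 nuclear components, PYGO1, a β-catenin co-activator, was 30.8 times higher (25.5 to 37.5), at 1585 CPM in the DCC-high cluster, and CTBP2, a co-repressor, was 2.78-fold lower, with 9 within 2-fold. TCF7L1 and TCF7L2, the factors of the LEF1 family that were not members, were within 2-fold over whole libraries. TCF7L1 stood at 1528 CPM in the blastoid and 856 CPM in the blastocyst trophectoderm-like class, and at 1704 CPM in the epiblast-like class, and TCF7L2 was 2.36 times higher in the blastoid than in the blastocyst trophectoderm-like class (2.03 to 2.74). Of 8 extracellular inhibitors and their KREMEN receptors, 4 were higher, led by SFRP1 with 134 UMIs against 3, and KREMEN2 was 2.07-fold lower on 10 and 19 UMIs (ratio 0.48, 0.20 to 1.09). Of 9 other response genes, 6 were higher, led by CCND1 at 28.5 (17.1 to 51.3), and 1, LBH, was 6.66-fold lower. Beside all these whole-library counts, 23.2% of all genes were higher and 20% lower.

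Within the trophectoderm-like class the other response genes did not all follow AXIN2. TNFRSF19 was 19.0 times higher in the blastoid (9.79 to 42.3), and 3 of 6 such genes were higher and 0 lower, where all genes of this comparison gave 18.5% and 13%. Of 12 receptor genes 8 were higher, led by ROR2 at 23.7 (11.8 to 55.6), and 1, FZD5, was 3.23-fold lower. WNT4 at 15.1 (4.87 to 76.1), WLS at 2.79 (2.38 to 3.28), PYGO1 at 6.61 (4.29 to 10.6) and CSNK1E at 5.03 (3.09 to 8.57) were the highest of their groups. RSPO3 was 15.7-fold lower, KREMEN1 2.31-fold lower and APC 2.06-fold lower. SFRP2 gave 27 UMIs against 1.

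**Figure D4:**
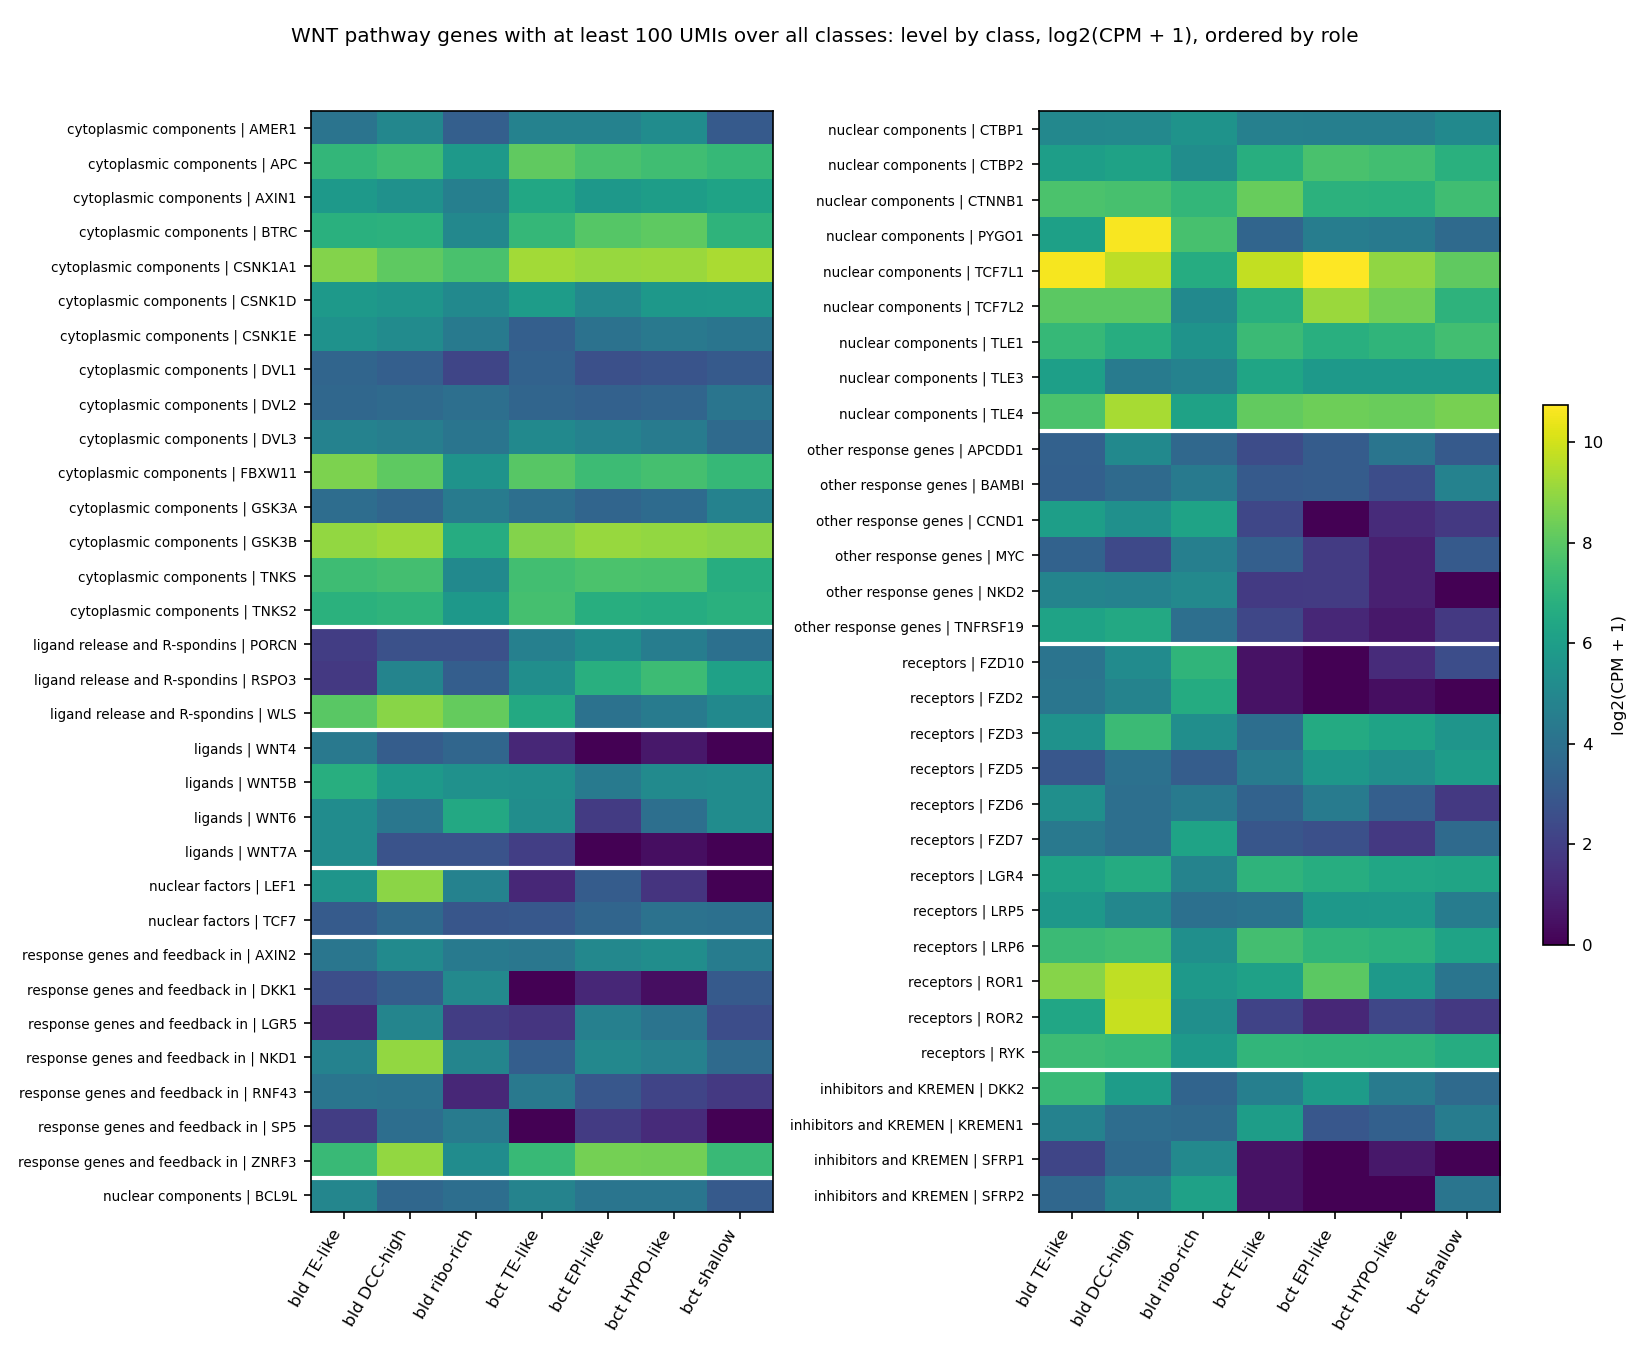
Level of 63 WNT pathway genes, the members included, with at least 100 UMIs over all classes, as log2(CPM + 1) in the 3 blastoid (bld) and 4 blastocyst (bct) classes and ordered by role in the pathway. LEF1, NKD1, PYGO1 and ROR2 are bright in the DCC-high column, FZD2 is dark in all blastocyst columns, and GSK3B is darkest in the ribosomal-rich column, at 99.9 CPM against 433 to 571 CPM in the other 6.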

How the data were processed

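The deposited files hold UMI counts per gene and barcode, made by the authors with Cell Ranger, version 7.2.0 per the file headers and 7.1.0 per the submitters' processing notes, which also name Seurat 4.3.0. The genome build and annotation are not given in the sources used here. Symbols come from the deposited feature lists, since 0 of 35643 identifiers matched the reference gene table, so no coordinates or sequences are given.

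Barcodes with at least 500 genes and under 10% mitochondrial UMIs were kept (8 and 99 fell under the first limit and 5 and 61 over the second, blastoid and blastocyst). Doublets were taken out by Scrublet score in scanpy 1.11.5, 30 and 6 barcodes, at a rate of 0.8% for every 1000 barcodes. Each library was clustered alone (2000 variable genes without marker and WNT genes, 30 components, 15 neighbours, leidenalg 0.10.2 at resolution 0.5). A cluster was named from at least 3 markers with 100 UMIs and 1.5 times the CPM of the other clusters, at least 2 times as many as for any other type. Clusters over 5% ribosomal protein UMIs, or with a median depth under that of the library divided by 3, were not named. The naming rule was set after the data had been seen.

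UMIs were summed per class, and given as CPM with exact Poisson intervals. Ratios carry exact conditional and shares Clopper-Pearson intervals, at 95%. Genes reaching 20 UMIs over both sums were compared, with counts under 3 set to 3 for calls, and a ratio of 2 counted as called. The ratios and calls were tested on simulated independent Poisson counts. That simulation did not cover UMIs clumped in single nuclei, nor the clustering and naming of classes. The members and lists were chosen with earlier results of these data known. Named beside the members are the highest and lowest gene of each pathway list and the 3 genes most like each member with at least 100 UMIs. A few other genes (GATA2, GATA3, HNF4A, PAX3, STMN2, SOX1, SOX10, GSK3B, TCF7L1, TCF7L2, PORCN and RSPO3 levels) were named after their values were seen. The 18 alternative settings, 4 of them added after seeing the data, changed barcode filters, doublet removal, resolution, class definition, scaling and UMI minimum.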

Additional observations from a re-analysis of the deposited data

How the results depend on the processing

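None of the called members changed direction over whole libraries (12 settings each) or in the trophectoderm-like class (10 each). The other comparisons of classes were not rerun as ratios, apart from values of LEF1 and LGR5 without their highest nuclei, added after seeing the data. Without the DCC-high cluster, which was added after seeing the data, 2 of 9 members were at least 2-fold lower over whole libraries instead of 0, and 14 of 70 other WNT genes were lower instead of 8, where 27.1% of all genes were lower. With at least 100 UMIs the other WNT genes gave 19 higher and 5 lower of 54 over whole libraries (all genes 21% and 18%), and 13 higher and 2 lower of 37 in the trophectoderm-like class (13.7% and 11.5%). With at least 10 UMIs 26 of 65 were higher (20.4%) and 9 lower (14.3%) in that class. Over whole libraries 5 of 68 were lower at 4000 UMIs per barcode (14.7%) and 5 of 67 without ribosomal-rich and shallow barcodes (14.9%). A UMI minimum changes how many genes are counted; for the other settings the cause was not tested. The log2 ratio of LEF1 over whole libraries ranged from 3.93 to 6.60, and was 3.26 without both the DCC-high cluster and the highest trophectoderm-like nucleus. In the trophectoderm-like class it ranged from 3.73 to 6.06, and was 3.00 without its 3 highest nuclei. For NKD1 it ranged from 0.50 to 3.60 and from 1.60 to 3.50.

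Class names depended on resolution: at 0.3 the 465 barcodes holding most of the hypoblast-like class stayed unnamed, and at 1.0 only 138 kept the name. At 4000 UMIs no blastocyst cluster was trophectoderm-like, so that ratio is missing there. In the blastoid the border between the deep classes also moved at that limit. The trophectoderm-like class held 98 barcodes instead of 154, and the unnamed cluster 189 instead of 141. Depth limits NOTUM everywhere and SP5, DKK1 and LGR5 in the trophectoderm-like class. No paired analysis was possible because each group has 1 library.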
